A study of Brassica napus with 24 samples.

Results

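The transcripts described here are the 100 array probes, of 43603 on the rapeseed array, whose signal in the anthers of middle buds of normal plants stood furthest above that in every other tissue sampled. They were chosen on the mock-treated plants alone. For each probe a score was taken, the log2 mean of the 3 mock-treated arrays of middle-bud anthers minus the highest of the 3 other mock-treated tissue means, and the 100 probes with the highest scores were kept. The values that chose them are therefore given as a description and carry no test.

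The plants were rapeseed (Brassica napus), an inbred cultivar, 'Zhongshuang No.9', grown in the field. At bolting, plants were sprayed once with about 15 mL of 0.1 μg/mL monosulfuron ester sodium (MES), a sulfonylurea that inhibits acetolactate synthase and that at this dose makes the plants male sterile, in water with the solvent DMF and the detergent Tween 80. Mock-treated plants received DMF and Tween 80 without MES. From each treatment 4 tissues were hybridised to 3 arrays each, 24 in all: young leaves of the main inflorescence (Ls), whole small buds under 1 mm, up to and including the stage of pollen mother cells (SBs), anthers of middle buds of 1 to 3 mm, from meiosis to the early uninucleate microspore (An-MBs), and anthers of large buds over 3 mm, which hold vacuolated microspores and later stages up to mature pollen (An-LBs). Each replicate was a mixture of plants from 20 rows. SBs were whole buds and An-MBs span several stages, so that fewer cells of a type and less RNA per cell cannot be told apart in any of these samples.

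In an anther, the microspores develop inside a locule lined by the tapetum, a secretory cell layer of the parent plant. Around meiosis and in the early microspore the tapetum is at its most active: it feeds the meiotic cells, releases the enzymes that dissolve the callose wall of the tetrads, and exports the lipid and phenolic precursors of sporopollenin, the polymer of the outer pollen wall. Later it breaks down and its lipids and proteins are laid on the pollen surface as the pollen coat, while the haploid pollen turns on its own late programme of wall-loosening and tube-growth genes.

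The 100 probes had scores from 5.36 to 9.08 on the log2 scale, with a median of 6.21, where the median over all probes was -0.60. The last members inside the list, A_46_P230869 and A_46_P212539, both scored 5.36, and the first probes outside it, A_46_P319480 and A_46_P210859, scored 5.24 and 5.23, so that there was no wide gap at the end of the list. The 100 probes carried 92 distinct accessions: 15 of them shared one with another member, and those are not independent transcripts. Within the tables used here only 1 member, A_46_P003226, has a gene description. The others are given by the probe identifier, no function is assigned to them, and no probe sequence is shown because none of the files used here holds one.

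A few arrays stood apart from the other arrays of their group in many of these transcripts, and in some probes outside the list. The main counts and medians that rest on these arrays are given with and without them. On the mock An-LBs array of replicate 2 only 9 of the 100 probes were well above background, where replicates 1 and 3 had 89 and 92. Among the MES An-LBs arrays it was replicate 1, with 13, where replicates 2 and 3 each had 95. The mock SBs array of replicate 1 had 57, where the other 2 had 28 and 27. Over all probes these arrays still correlated with the others of their group. Mock An-LBs replicate 2 correlated with the other 2 at r = 0.971 and 0.965, and those with each other at 0.99. MES An-LBs replicate 1 correlated with the other 2 at 0.975 and 0.971, and those with each other at 0.982. The MES An-MBs array of replicate 2 was the dimmest of its group, with a median signal of 383.9 against 1098.3 and 1162.2. The MES An-LBs array of replicate 2 lay alone on a slide of its own, read on another scanner. Mock arrays lay on slides 1 to 3 and MES arrays on slides 4 to 7, so that slide and treatment cannot be told apart, and the arrays of 1 tissue had the same place on each slide with that exception, so that place and tissue cannot be told apart either.

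The tissue labels were checked on lists of Arabidopsis genes matched through the study's annotation, which names only transcripts the study had found changed on these same arrays. Of 52 listed genes 22 had a named probe; the lists of meiosis genes and of tapetal regulators had none, and no listed gene was among the 100. The mean of 8 leaf photosynthesis probes was 15.62 to 16.22 on the 6 leaf arrays and 11.81 to 14.04 on all others, as the labels have it. The mean of 23 late pollen probes was 15.86 to 15.97 on the 3 mock An-LBs arrays, replicate 2 included, against 11.55 to 13.30 in mock An-MBs. The 4 probes of microspore and early pollen genes averaged 14.25 to 15.36 in mock An-MBs. In mock An-LBs they averaged 13.00 in replicate 1, 7.59 in replicate 2 and 12.84 in replicate 3, so that replicate 2 was again the low array. Of the tapetum and sporopollenin list only 2 genes had a probe. Their mean was 16.49 to 17 in mock SBs and 3.31 to 7.86 in mock An-MBs, so that in mock plants it was highest in small buds and not in An-MBs. It was 7.03 to 13.81 in MES SBs and 8.65 to 10.31 in MES An-MBs, ranges that overlapped. The 1 probe of the callose and tetrad wall list, for ARF17, read 8.18 to 12.28 over all arrays.

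**Figure D1:**
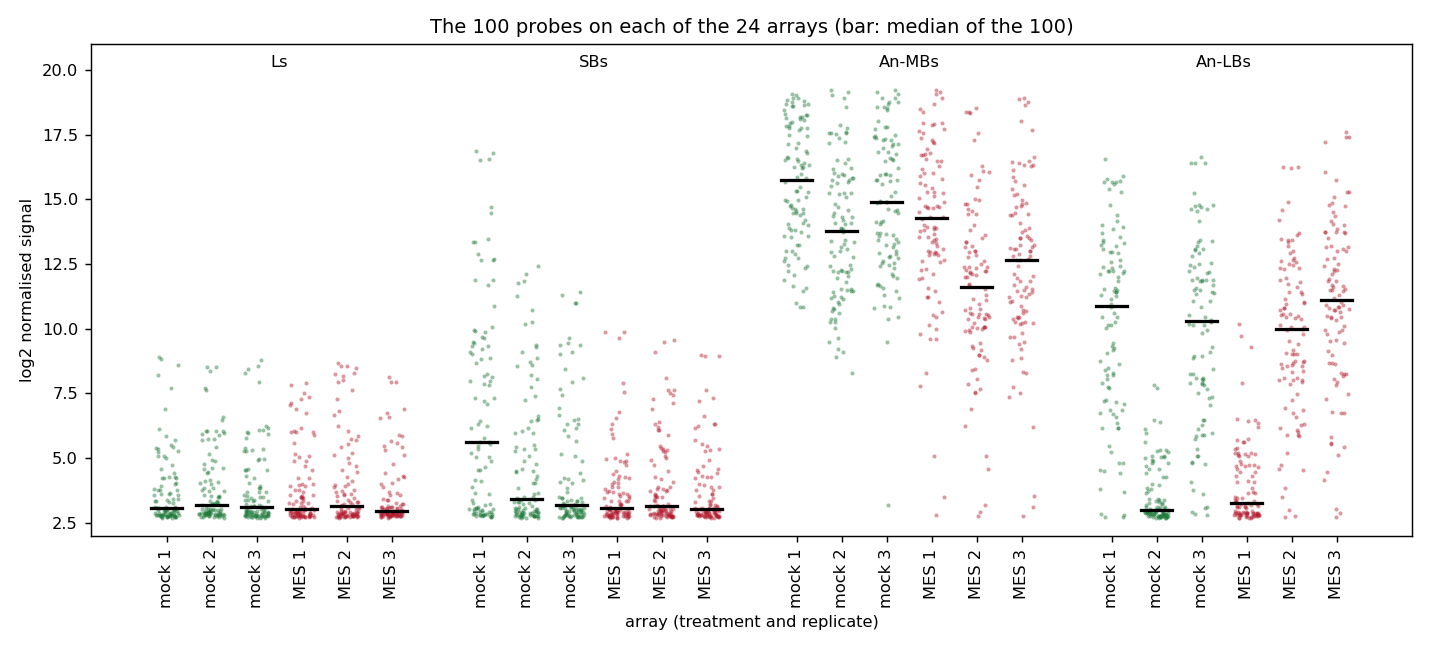
Log2 normalised signal (vertical axis) of each of the 100 probes (points) on each of the 24 arrays (horizontal axis, by tissue, treatment and replicate), with the median of the 100 as a bar. The 6 An-MBs arrays have medians of 11.62 to 15.74; mock An-LBs replicate 2 and MES An-LBs replicate 1 have medians of 3.00 and 3.26, near those of the leaves, where the other An-LBs arrays have 9.98 to 11.11.

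In mock-treated plants most of the 100 probes read low in Ls and SBs and high in An-MBs. Single members departed from this, with SBs means of up to 13.55 and An-MBs means down to 9.42. The median over members of the group mean was 14.80 in An-MBs, against 8.23 in An-LBs, 4.64 in SBs and 3.28 in Ls, on a scale on which the median of all probes was 9.57 to 9.59. In Ls 85 members were well above background on no array, and in SBs 40, whereas in An-MBs 99 were on all 3 arrays and the remaining one on 2. The tissue next to An-MBs was An-LBs for 71 members, SBs for 27 and Ls for 2. Without mock An-LBs replicate 2 these counts were 88, 10 and 2, and without mock SBs replicate 1 they were 84, 11 and 5, with a median SBs mean of 3.37. Where a probe was not above background in the dimmer group, only a bound on the fold can be given; it sets each dim array at the lowest signal that was still well above background there. For the 85 members without signal in mock leaves, mock An-MBs were at least 13.0-fold to at least 10600-fold higher, with a median bound of 340-fold.

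The probe with the highest score, A_46_P210004, read 14.63, 12.20 and 13.23 on the mock An-MBs arrays of replicates 1 to 3. It was not well above background on any leaf array (2.76 to 2.86 in mock plants), and in mock SBs it read 7.33 in replicate 1 and 2.77 and 2.73 in the others. In mock An-LBs it read 3.69, 2.76 and 5.85. The An-MBs arrays thus lay clear of every other mock array, the nearest being the first SBs array.

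A_46_P004546, ranked 2, read 17.50, 15.26 and 16.53 in mock An-MBs and 10.96, 3.11 and 10.17 in mock An-LBs. A_46_P134524, ranked 3, read 18.29, 16.55 and 17.50 in An-MBs, 12.65, 2.90 and 11.89 in An-LBs, and 13.47, 6.05 and 6.48 in SBs. Both show the profile common to most of the list, a high level in An-MBs, an intermediate one on 2 of 3 An-LBs arrays and background on the third. A_46_P233309 and A_46_P141589, ranked 5 and 7, are probes for 1 accession, EV151779. They read 18.16, 15.81 and 17.15, and 18.93, 17.89 and 18.77, in mock An-MBs, and 12.42, 3.38 and 11.86, and 14.79, 3.27 and 14.15, in mock An-LBs. Neither was well above background on a leaf array of either treatment. In SBs each passed that limit on few arrays, the first on 1 MES array at 5.38 and the second on 1 array of each treatment, up to 8.08.

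Among the other probes of the first 12, A_46_P114204 and A_46_P234659 resembled A_46_P134524, with 13.35 and 12.89 on the first mock SBs array against 5.16 to 5.98 and 2.89 to 4.10 on the other 2. A_46_P363525 had no signal above background in SBs at all (2.80 to 2.96) and read 16.98, 14.70 and 15.98 in mock An-MBs. A_46_P319675 read 14.09, 13.02 and 13.48 there, and 6.16, 2.92 and 8.27 in An-LBs. A_46_P227834 was the steadiest of them in mock An-MBs, at 16.26, 16.01 and 16.21, and was above background in all 3 mock SBs, at 10.06, 9.09 and 6.33. Probes already seen in small buds and probes first seen in An-MBs thus both occur among the first 12. The remaining 2, A_46_P172349 and A_46_P308535, departed from the profile in other ways and are described with the MES-treated plants.

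**Figure D2:**
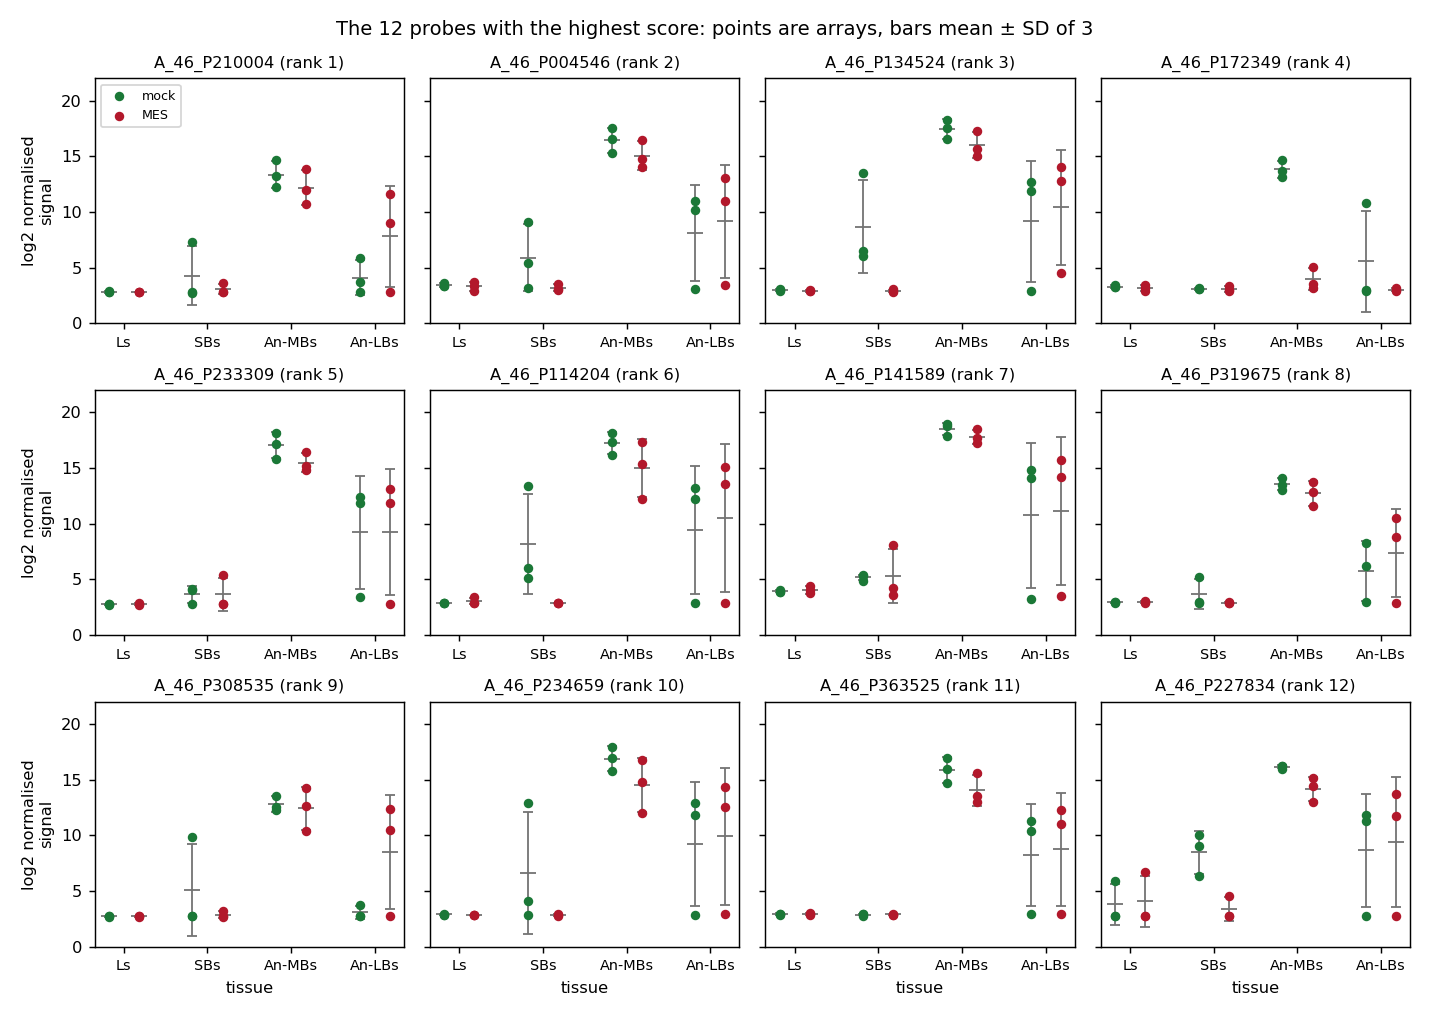
The 12 probes with the highest score: log2 normalised signal (vertical axis) by tissue (horizontal axis) in mock-treated (green) and MES-treated (red) plants, with each array as a point and the mean ± SD of 3 arrays as bars. In An-MBs 11 of the 12 keep a high signal after MES, with group means of 12.19 to 17.81, and A_46_P172349 falls to 3.94.

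The 1 member with a description, A_46_P003226, is annotated as similar to the Arabidopsis gene AT1G20130, a GDSL-like lipase/acylhydrolase, and its accession, X60376, as the CEX mRNA for a proline-rich protein of rapeseed. GDSL lipases hydrolyse ester bonds of lipids and other substrates, and in Arabidopsis members of this family are abundant in the pollen coat. The probe read 18.65, 17.60 and 18.51 in mock An-MBs, a mean of 18.25 ± 0.57 (SD, n = 3), and 17.95, 15.47 and 16.41 in MES An-MBs, a mean of 16.61 ± 1.25 (SD, n = 3). The second probe of that accession, A_46_P231594, also a member, read 16.58, 14.07 and 15.76 in mock An-MBs and 14.66, 13.02 and 12.65 in MES An-MBs. Both were highest in An-MBs in each treatment. In Ls and SBs they parted: A_46_P231594 was at background there in both treatments. A_46_P003226 read 6.09 to 6.18 in mock SBs and 7.55 to 7.64 in MES SBs, groups that did not overlap.

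Since the scores were computed on the mock arrays, the choice was repeated with each mock replicate number left out and the 100 probes chosen on the other 2 were read on the one left out. Of the probes so chosen 92, 68 and 84 were in the list of 100 when replicate 1, 2 or 3 was left out. On the replicate left out, their median scores were 4.42, 6.19 and 4.64, and 99, 99 and 99 of 100 had a score above 0. Among all probes 2.72% to 3.60% had a score of 1 or more on the replicate left out; of the chosen probes it was 99, 98 and 99. The middle-bud peak thus recurred in the replicate that had no part in the choice. When only the mock An-LBs array of replicate 2 was left out of the choice, 64 of the 100 stayed in the list, and without it the scores of the 100 ran from 2.09 to 8.58 with a median of 4.44.

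The MES-treated arrays had no part in the choice, and on them the tissues can be compared with a test. The question was whether the transcripts also peaked in middle-bud anthers of male-sterile plants. They did in 98 of 100: the highest MES group mean was that of An-MBs for 98 members, of An-LBs for 1 (A_46_P230564) and of Ls for 1 (A_46_P228834, which was well above background on no MES array). The score computed on MES arrays had a median of 4.70 and ran from -1.54 to 7.69, with 97 members at 1 or more, where 3.00% of all probes reached 1. Without the MES An-LBs array that stands apart the median was 2.50, with 95 members above 0.

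Against leaves and small buds the separation in MES-treated plants was wide. All 3 MES An-MBs arrays lay above all 3 MES Ls arrays for 96 of the 100 members (18.2% of all probes did), and above all 3 MES SBs arrays for 96 (14.9% of all probes). In the limma fits, called at an adjusted p under 0.05 and a 2-fold difference, 92 members were higher in An-MBs than in Ls, where 8.89% of the probes tested were, and 93 were higher than in SBs, where 6.63% were. In both fits 94 members had passed the filter on dim probes, nearly all through their An-MBs signal alone, so the fits were repeated on every probe: 93 of 100 were then higher than in Ls (6.72% of all probes) and 92 higher than in SBs (4.87%). No member was called lower in either (10.9% and 4.30% of the probes tested were). For the 75 members without signal in MES Ls and with signal in MES An-MBs, the bound on the fold was 1.53 to 7960 with a median of 151, and for the 67 such members in SBs it was 2.23 to 11200 with a median of 179. With slide as a block the filtered counts were 92 and 91. Within each of the 3 slides that hold MES An-MBs the median difference was 10.69, 7.70 and 8.98 from Ls and 10.46, 7.44 and 8.77 from SBs.

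A_46_P141589 may stand for these: it read 18.49, 17.28 and 17.66 in MES An-MBs and 4.01, 3.75 and 4.44 in MES Ls. It was not well above background in MES Ls, and MES An-MBs were at least 6280-fold higher. In MES SBs it read 4.22, 8.08 and 3.63, well above background on 1 of the 3 arrays, with a fitted difference of 12.50 ± 1.16 (SE). It passed the filter on dim probes in both fits through its An-MBs arrays, so no p is given for it. A_46_P183564 had the highest MES score of the 100, 7.69; it read 14.72, 12.10 and 13.07 in MES An-MBs and 2.96, 3.52 and 10.35 in MES An-LBs, where replicate 3 stood far above the other 2. A_46_P307055, among the 3 highest MES scores, read 16.55, 14.98 and 14.73 in MES An-MBs against 2.70 to 3.89 on the MES Ls and SBs arrays. A_46_P212539, the last in the list, was not called against Ls: it read 7.78, 7.54 and 7.38 in MES An-MBs and 6.90, 3.63 and 2.73 in MES Ls (difference 3.14 ± 1.02, SE). It reached the filter on dim probes only with its An-MBs arrays, so no p is given for it either.

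Between MES An-MBs and MES An-LBs the picture was different, and the An-LBs arrays disagreed. The 3 An-MBs arrays lay above the 3 An-LBs arrays for 64 members (16.4% of all probes), and above An-LBs replicates 2 and 3 for 65 (24.7%). By limma 9 members were called higher (3.32% of the 34805 probes tested), 5 with no filter on dim probes (2.13%), and none with slide as a block, which rests on the 2 slides shared by both tissues. The count was 18 with another background correction (normexp), 46 with all 24 arrays in 1 fit and 51 with slide as a random block in that fit. The share over all probes was not taken for these alternatives. No member was called lower in the pairwise fit (4.08%). On the slide of replicate 1 An-MBs exceeded An-LBs by a median of 10.65, and on that of replicate 3 by 1.48. Between the arrays of replicate 2, which lay on different slides, the median was 2.08. An-MBs were the higher for 98, 83 and 89 members in replicates 1, 2 and 3. Most members were thus higher in An-MBs for each replicate number, and the size differed. The numbers were not taken to pair these samples (r = -0.127, -0.0176 and 0.196 for numbers 1, 2 and 3). The share over all probes was not taken for these counts, so they are a description. Leaving out An-LBs replicate 1 left 2 members called, and the median of MES An-MBs minus each An-LBs array was 8.99 for replicate 1, 3.21 for replicate 2 and 1.85 for replicate 3.

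The 9 members called include A_46_P336145, A_46_P121169 and A_46_P230869. A_46_P336145 read 12.67, 10.56 and 10.46 in MES An-MBs and 4.67, 5.20 and 5.45 in MES An-LBs, a difference of 6.12 ± 0.63 (SE; limma, adjusted p = 0.00644), and it was still called with any 1 of the 6 arrays left out. A_46_P121169 read 11.91, 8.46 and 9.83 against 2.89, 3.84 and 5.11, a difference of 6.12 ± 0.96 (SE). The call was lost without An-MBs replicate 3 or An-LBs replicate 1 or 2. With 2.89 and 3.84 on An-LBs replicates 1 and 2, it passed the filter on dim probes mainly through its An-MBs arrays, so no p is given for it. A_46_P230869 read 13.65, 11.99 and 11.42 against 7.89, 8.10 and 9.45, a difference of 3.87 ± 0.68 (SE; limma, adjusted p = 0.0277), which was lost without An-LBs replicate 1 or 2 (0.102 and 0.11) or An-MBs replicate 3 (0.0536). Of the members not called, the first by score, A_46_P210004, read 13.86, 10.73 and 11.98 in MES An-MBs and 2.82, 9.01 and 11.65 in MES An-LBs (4.36 ± 2.20, SE; limma, adjusted p = 0.257).

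The split among the large-bud arrays ran through most of the members. In MES An-LBs, 78 of the 100 members were lower in replicate 1 than in both other replicates by 3 or more on the log2 scale, as 0.527% of all 43603 probes were. In the mock An-LBs, whose means entered the choice, 80 members were that much lower in replicate 2, as were 1.04% of all probes. Of the next 100 probes by score, 27 and 34 showed the same. On none of the other 4 An-LBs arrays was a member lower than both others by that margin. The late pollen list did not split in this way in mock An-LBs, where its mean was 15.94, 15.97 and 15.86 in replicates 1 to 3. In MES An-LBs it was 7.05, 7.25 and 7.82, against 3.67, 3.72 and 3.57 in MES An-MBs, and whether a split could show at that level was not tested.

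The An-LBs arrays were also set against the An-MBs means probe by probe. These correlations are descriptions: each point keeps its own probe affinity on both axes, and for the mock arrays the choice of members ties both values together. On mock An-LBs replicates 1 and 3 the 100 probes correlated with their mock An-MBs means at r = 0.902 and 0.906 and lay a median of 4.06 and 4.70 below them, with interquartile ranges of 3.32 to 4.98 and 4.09 to 5.53. On replicate 2 the correlation was 0.400 and the median gap 10.98, close to that of the leaf arrays (10.58 to 10.98). The MES An-LBs arrays of replicates 2 and 3 correlated with the MES An-MBs means at 0.847 and 0.898, and replicate 1 at 0.328. MES An-LBs replicate 2, on the slide of its own, had 95 members well above background, and MES An-LBs replicate 1, on slide 4, had 13. The part of slide or scanner in the split was not tested. Of the marker lists, the microspore and early pollen probes were low on the same mock array, at 7.59, and averaged 4.88, 5.64 and 6.89 on the 3 MES An-LBs arrays, and their part in the split was not tested.

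**Figure D3:**
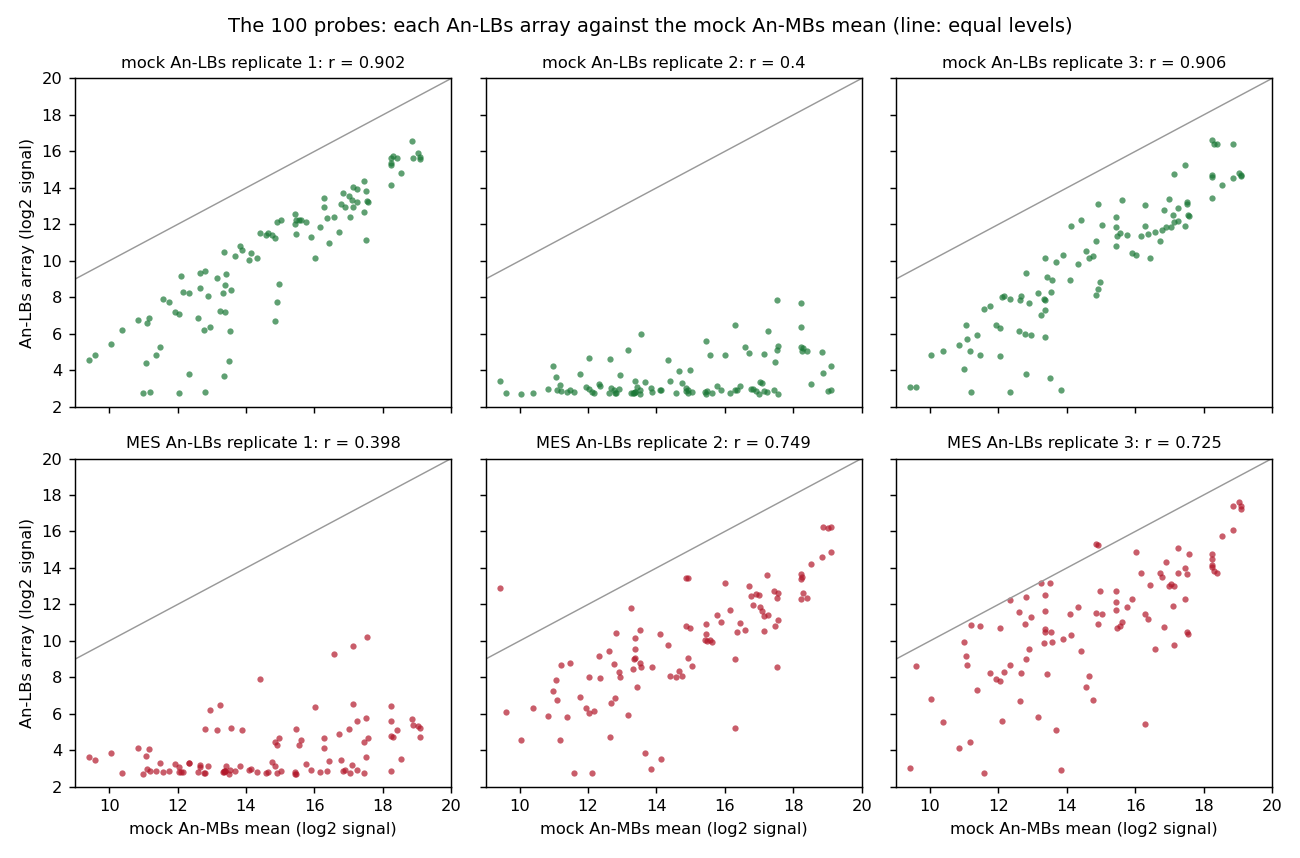
Log2 normalised signal of the 100 probes (points) on each of the 6 An-LBs arrays (vertical axes) against their mean in mock An-MBs (horizontal axes); the line marks equal levels and r is Pearson's correlation across the 100 probes. On mock replicate 2 and MES replicate 1 most probes lie near background (r = 0.400 and 0.398), and on the other 4 arrays they rise with the mock An-MBs mean and lie mostly below the line.

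The 2 treatments are set side by side as a description, because the mock arrays chose the members and a probe that read high by chance on them would read lower elsewhere. Counts of limma calls between treatments are given beside the share over all probes for completeness, and nothing is read from them. In An-MBs the MES mean was below the mock mean for 99 of 100 members, with a median difference of -1.79, and by 2-fold or more for 74, where 7.40% of all probes were. The arrays of the groups nevertheless overlapped for 78 members; for the other 22 all 3 MES arrays lay below all 3 mock arrays, as they did for 14.5% of all probes, and none had the reverse order (13.7%). The limma calls numbered 11 lower (2.86% of the probes tested) and none higher (4.24%). Without the dim MES array of replicate 2 the median difference was -1.19, with 58 members at 2-fold or more lower (8.77% of all probes). Against mock replicates that had no part in choosing them, the MES minus mock median of probes chosen on the other 2 was -2.80, -0.73 and -2.29. The mock group was itself spread: replicate 2 was below replicate 1 for 94 of the 100 members, by a mean of 1.82. Beside these values, the 4 microspore and early pollen probes averaged 4.02 to 4.50 in MES An-MBs and the 23 late pollen probes 3.57 to 3.72, against the mock values given above, and the 2 tapetum and sporopollenin probes, in the other direction, 8.65 to 10.31 against 3.31 to 7.86. Those probes have a name only because the study listed them as changed, and their part in the members' levels was not tested.

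**Figure D4:**
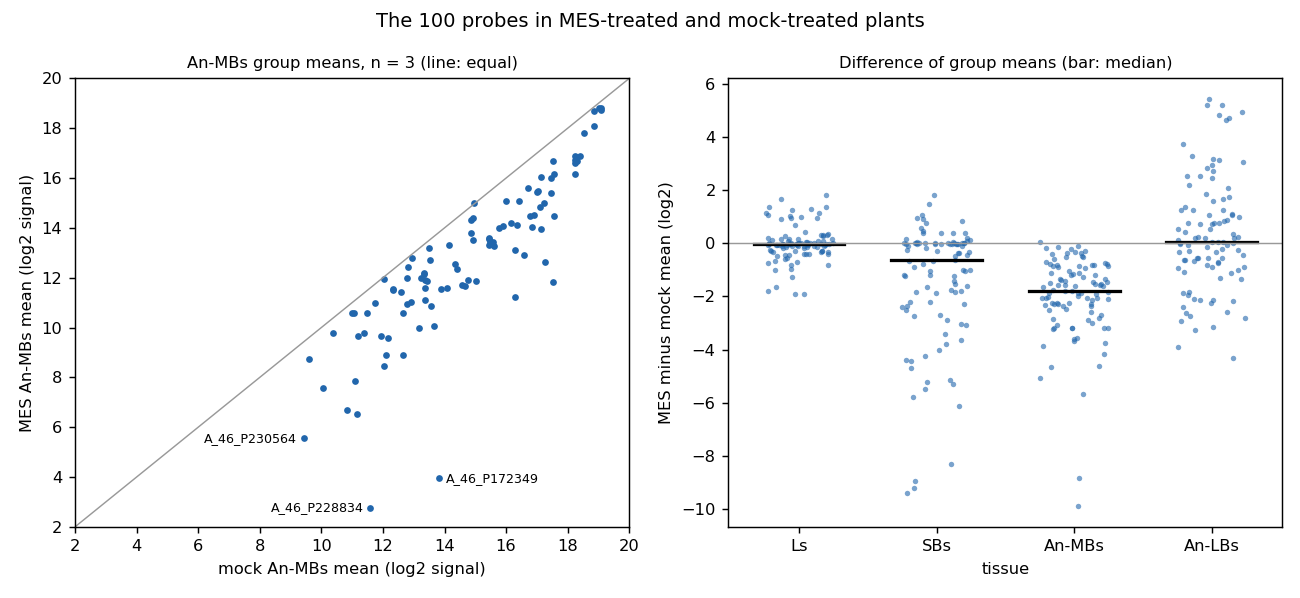
Left, the mean of 3 MES An-MBs arrays (vertical axis) against the mean of 3 mock An-MBs arrays (horizontal axis), log2 normalised signal, for each of the 100 probes, with the line of equal levels. Right, MES mean minus mock mean (log2) in each tissue for the 100 probes, with medians of -0.04 (Ls), -0.65 (SBs), -1.79 (An-MBs) and 0.04 (An-LBs) as bars. Most points on the left lie below the line, 74 of the 100 by 2-fold or more, and A_46_P172349 and A_46_P228834 fall to background.

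Of the 100 members 2 were lost from MES An-MBs altogether. A_46_P172349, ranked 4 by score, read 14.63, 13.16 and 13.71 in mock An-MBs and 5.07, 3.20 and 3.56 in MES An-MBs, not well above background on any of the last, so that the mock level was at least 672-fold higher. It was also at background in all MES An-LBs and, in mock An-LBs, present in replicate 1 only, at 10.83. A_46_P228834 read 11.65, 10.67 and 12.42 in mock An-MBs and 2.79, 2.76 and 2.75 in MES An-MBs, with the mock level at least 142-fold higher. In mock An-LBs it read 7.91, 2.78 and 7.38, and in MES An-LBs 2.73 to 2.80. For both the 2 treatments were clear of each other by more than the spread of either group.

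A_46_P230564 varied widely between arrays of the same group. It read 10.85, 14.22 and 3.19 in mock An-MBs, 3.5, 10.06 and 3.11 in MES An-MBs, and 3.65, 12.91 and 3.03 in MES An-LBs, and it was at background on all mock An-LBs and on all leaf and small-bud arrays. It is the only member not well above background on every mock An-MBs array, and its place in the list rests on replicates 1 and 2. A_46_P336145 and A_46_P121169 kept their middle-bud peak after MES at a lower level: 17.18, 15.23 and 16.47 in mock against 12.67, 10.56 and 10.46 in MES An-MBs for the first, and 14.78, 12.21 and 14.03 against 11.91, 8.46 and 9.83 for the second. Their MES An-LBs arrays, at 4.67 to 5.45 and 2.89 to 5.11, were far below the 2 mock An-LBs arrays with signal, at 13.44 and 11.90, and at 10.26 and 9.96.

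**Figure D5:**
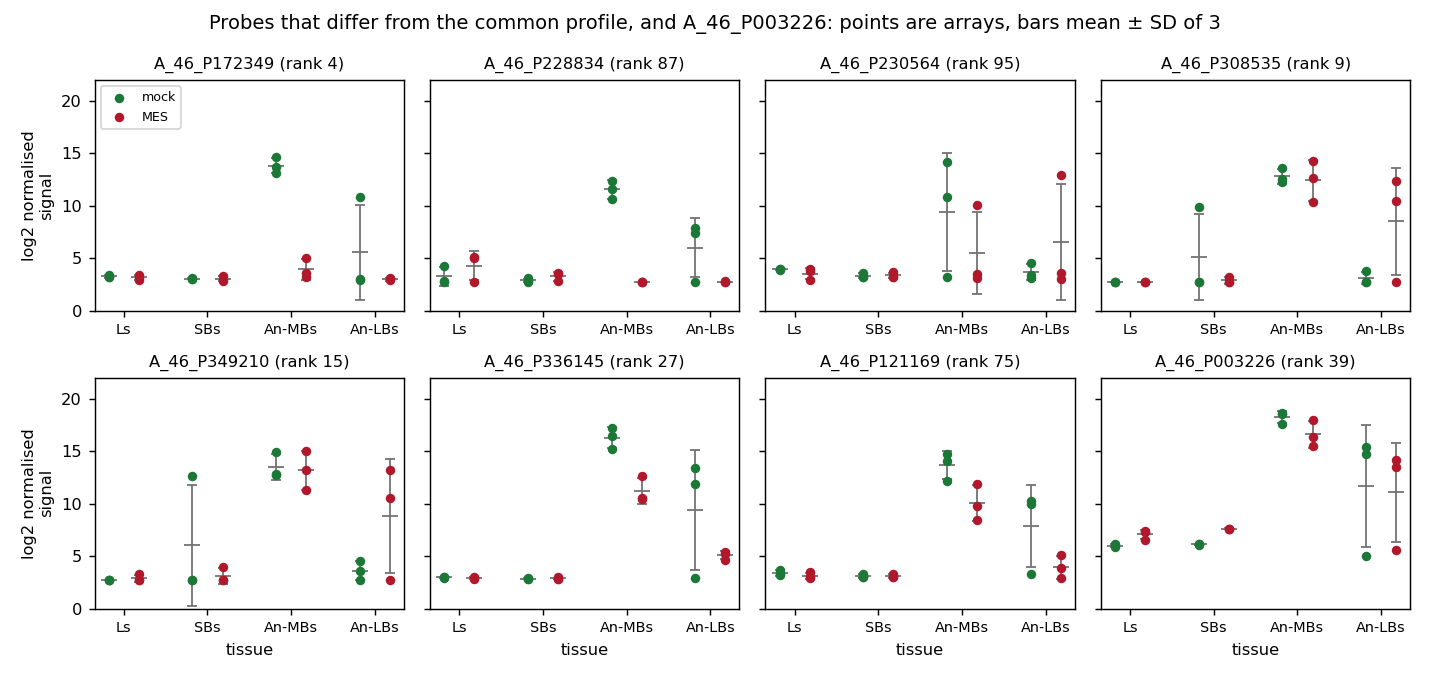
The probes described by name for their treatment differences, and A_46_P003226: log2 normalised signal (vertical axis) by tissue (horizontal axis) in mock-treated (green) and MES-treated (red) plants, with arrays as points and the mean ± SD of 3 arrays as bars. A_46_P172349 and A_46_P228834 have no signal above background in MES An-MBs; A_46_P308535 and A_46_P349210 are well above background on 2 MES An-LBs arrays and on no mock An-LBs array.

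In large-bud anthers the treatment difference had a median of 0.04 over the members. By 2-fold or more 31 were higher and 23 lower, as 18.1% and 12.3% of all probes were. For 99 members the arrays overlapped (all MES arrays lay above all mock arrays for 30.9% of all probes and below them for 17.7%). No member was called by limma, where 17.3% of the probes tested were called higher and 11.9% lower in MES. These group means hold the arrays without signal, 1 in each treatment. Leaving out the mock one gave a median of -2.33, leaving out the MES one 2.16, and leaving out both 0.07, so that the sign of the median in An-LBs changed with the array left out.

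A few members had signal on MES and not on mock An-LBs arrays. In mock An-LBs 7 members were well above background on no array, and 6 of these were well above background on both MES An-LBs replicates 2 and 3, and none of the 6 on replicate 1. Of all probes 8220 were well above background on no mock An-LBs array, and 13.9% of those were on both of these MES arrays. As a share of the whole set, it was 6% of the members and 2.63% of all probes. The choice favoured probes with low mock An-LBs means, so these shares are a description. A_46_P308535 read 2.79, 2.73 and 3.78 in mock An-LBs and 2.73, 10.45 and 12.42 in MES An-LBs, which over the 3 arrays is at least 16.8-fold higher. A_46_P349210 read 4.52, 2.70 and 3.60 in mock and 2.71, 10.57 and 13.19 in MES, at least 20.5-fold higher. The MES An-LBs values of replicates 2 and 3 lay within the MES An-MBs range for A_46_P308535 (10.37 to 14.25). For A_46_P349210 (11.31 to 15.04) replicate 3 did and replicate 2 lay below it. With replicates 2 and 3 alone the bounds were 126-fold and 171-fold. The other 4, picked out after their values were seen, were A_46_P121114, A_46_P228669, A_46_P209459 and A_46_P167374, with 6.10 to 12.23 on MES An-LBs replicates 2 and 3. A_46_P209624, also among the 3 largest differences, had signal in mock An-LBs, at 6.72, 2.84 and 8.10, and read 4.46, 13.43 and 15.30 in MES. The opposite was seen in A_46_P172349 and A_46_P228834, above background on at least 1 mock An-LBs array and on none of MES.

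In small buds, where 25 members were well above background on all 3 mock arrays and 8 on all 3 MES arrays, the mean was 2-fold or more lower in MES for 46 members and higher for 3, where 5.25% and 4.80% of all probes were, and 17 members had all MES arrays below all mock arrays (10.9% of all probes) and 2 above (13.2%). The limma calls, likewise a description, numbered 9 lower (2.32% of the probes tested) and 1 higher (1.81%). Without the mock SBs array of replicate 1 the median moved from -0.65 to -0.03 and 24 members were 2-fold or more lower (5.03% of all probes). The difference was widest in 4 probes picked out after their values were seen, A_46_P212684, A_46_P212479, A_46_P212629 and A_46_P325300. The first of them read 16.78, 12.43 and 11.43 in mock SBs and 4.18, 3.59 and 4.69 in MES SBs, while its An-MBs means were 19.10 in mock and 18.74 in MES. A_46_P212479 and A_46_P325300 share the accession TA20972_3708 with A_46_P134524 and showed the same, with 10.98 to 16.85 in mock SBs and 3.02 to 5.30 in MES SBs. The An-MBs readings of the 4 lie close to the top of the normalised scale (19.24), where differences between arrays are compressed. On the same SBs arrays the 2 tapetum and sporopollenin probes averaged 16.49 to 17 in mock and 7.03 to 13.81 in MES, and their part in the members' difference was not tested. In leaves the median difference was -0.04, all MES arrays lay above all mock arrays for 2 members and below for 15 (15.0% and 16.3% of all probes), 13 members passed the filter, and none was called (2.52% of the probes tested were called higher and 2.30% lower).

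Apart from their signals, little is recorded here for the members besides their accessions. Probes of 1 accession did not always share a profile in Ls and SBs, as the X60376 pair shows. Probes with accessions beginning in CX made up 18% of the members and 4.14% of the array, and those beginning in TA 30% and 15.4%. Within An-MBs the members moved together from array to array: MES replicate 1 was above replicate 3 for every member and above replicate 2 for 99. None of the 100 was saturated or marked as an outlier on any array.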

How the data were processed

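The 24 samples were each hybridised, with 1 dye (Cy3), to an Agilent rapeseed array. The deposited scanner files hold the processed spot intensity that the authors' Feature Extraction software gave after background subtraction (version 10.7.3.1 per the file headers; the submitters' processing notes name 9.1). The deposited value table holds log2 values that the authors made by quantile normalization in GeneSpring, and it chose the members. The levels and tests reported here came from the intensities: log2, spots of a probe averaged, 1417 control spots left out, spots marked as outliers given weight 0, and quantile normalization over the 24 arrays (median absolute difference from the authors' values, 6.54e-07).

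Pairs of groups were fitted in limma 3.58.1 (R 4.3.3) on their 6 arrays, leaving out probes that were well above background on fewer than 3 of these, and called at a Benjamini-Hochberg adjusted p under 0.05 over all probes tested and at least 2-fold. The fit was tested on simulated data. The adjusted p-values measure the spread between 3 plant mixtures. The percentage of probes well above background was 73.0 to 81.9 per array, and the number of arrays limits the precision. "Well above background" is the scanner software's own mark. Mock An-MBs replicates 1 and 2 carried codes in their file names that differed from those in their labels; the labels were followed, and the values of both arrays differ.

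The members and the gene lists were chosen with earlier results of these data known. Members named are the 12 with the highest score, the annotated one, the 3 highest and 3 lowest by MES score and by MES minus mock difference in An-LBs, and the probes at the edge of the list. Replicate numbers are shared by the groups. The numbers were taken to pair the samples where the deviations from the group means of all 3 same-numbered pairs correlated above 0.1, which held for MES and mock leaves (r = 0.145, 0.252 and 0.429 over 27366 probes) and for no other pair of groups compared. The alternatives tried were other normalizations, background corrections, filters, tests, blocks and list sizes, and leaving out each array.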

Additional observations from a re-analysis of the deposited data

How the results depend on the processing

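The counts of members higher in MES An-MBs than in MES Ls (92) and MES SBs (93) fell to 9 and 7 where a probe had to be well above background on all 6 arrays, since few members had signal in Ls or SBs, and the second to 59 by the methods' t-test at its own threshold; under the other alternatives both stayed within 1.5 times. The count against MES An-LBs (9) was 18 with normexp background correction, 5 with no filter on dim probes, 3 with signal required on all 6 arrays, 46 with all 24 arrays in 1 fit, 51 with slide as a random block in that fit (added after seeing the data), 0 with slide as a block, and 1 by the methods' t-test at its threshold and 1 after Benjamini-Hochberg adjustment. With 1 array left out it ranged from 2 (without An-MBs replicate 3, or An-LBs replicate 1 or 2) to 12 (without An-MBs replicate 2). The MES minus mock counts, which describe members chosen on the mock arrays, moved as follows. In SBs the count of 10 became 5 with no filter, 1 with signal on all 6 arrays, 2 with all 24 arrays, 1 with slide as a random block, 1 and 1 by the t-tests, and 4 to 10 with 1 array left out; among the 50 highest 4% were called. In An-MBs the count of 11 became 2 and 2 by the t-tests, 6 with mock replicates 1 and 2 averaged as 1, and 2 (without mock replicate 1) to 12 with 1 array left out; among the 200 highest 18.5% were called. In An-LBs the count of 0 became 5 with all 24 arrays and 5 with slide as a random block, and 0 to 11 with 1 array left out: 11, all higher in MES, without MES replicate 1, and 10, all lower, without mock replicate 2; among the 200 highest 1.5% were called. In Ls the count of 0 ranged from 0 to 3 (without MES replicate 3). Of the 100 members the choice of the 50 highest kept 50, and leaving out 1 array kept 64 (mock An-LBs replicate 2) or 93 (mock SBs replicate 1). The MES score had a median of 3.60 with normexp. A_46_P209624, 3.27 higher in MES An-MBs than in MES An-LBs, was at -0.03 without MES An-LBs replicate 1 and 5.39 without replicate 3. Among the named members' other values, 977 kept their side of the threshold, 34 lost it and 12 gained it. The cause of these moves was not tested except where stated. The share of all probes called is given only for the fits as reported and, between MES tissues, without a filter. The other counts are therefore not read as a result about the members.

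With the replicate number as a block, 92 and 91 members were higher in MES An-MBs than in MES Ls and SBs. Against MES An-LBs 2 were. In An-MBs 30 were then called lower in MES and 0 higher, with no share over all probes beside them. Outside leaves the samples share only a number. In leaves, where the numbers were taken to pair the samples, the blocked count was 0 as well. A block for slide could not be fitted between treatments, which share no slide.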
